A study of Gallus gallus with 30 samples.

Results

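Granulosa cell layers of medium-sized prehierarchical follicles were compared with those of large yellow follicles (LYF), the last prehierarchical size class of the hen ovary, in 9 of the 30 RNA-seq libraries of the series. The members were chosen by their labels and not by their values. The 6 libraries whose columns are called LWF (large white follicle) or SYF (small yellow follicle) form 1 group, LWF/SYF, because the sample titles exchange these names relative to the columns: the columns LWF-1 to LWF-3 are titled SYF, and the columns SYF-1 to SYF-3 are titled LWF. The 3 LYF libraries form the other group. Every library came from Luhua hens aged 31 weeks, with no treatment named in the labels. The study calls the 3 libraries of a stage biological replicates. The sources used here do not say whether they came from separate hens or how many follicles each holds. The p-values therefore measure the spread between these libraries, and those of limma also draw on the spread of other genes. LWF/SYF spans more than 1 follicle size by construction.

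A laying hen's ovary holds a graded set of yolk-filling follicles. Granulosa cells form the layer next to the oocyte, contribute proteins to the egg coat and acquire the capacity to make progesterone as the follicle matures. Follicles leave the slow-growing prehierarchical pool around the time that they reach the large yellow size, when 1 follicle is selected into the hierarchy of rapidly growing preovulatory follicles, whose smallest member here is F5.

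The levels are FPKM (fragments per kilobase of transcript, scaled to the total of mapped fragments of the library), as deposited per gene and library. Of 23910 genes, 4754 were listed at 0 in all 9 libraries, and 13469 had FPKM over 0.5 in at least 2 libraries of a group and were tested. No library pair held identical values. Read totals were not used here. The most frequent FPKM above 0 in a library, taken as a rough relative guide to depth, varied by 1.21-fold between the highest and the lowest library. How many fragments it stands for was not tested. Symbols could be given to 32 genes, all of them among the most abundant of the tissue, and 1 of the 10 granulosa markers (ZP3) was among these. None of the markers of theca, vessels, blood, leukocytes, oocyte or surface epithelium had a known identifier. The purity of the layers was therefore not tested, and in bulk tissue fewer cells of a type and less RNA per cell cannot be told apart.

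Of the 9 libraries, 2 stood apart from their groups. SYF-3, titled LWF replicate 3, resembled the LYF libraries more than its own group. Its Spearman correlation over the genes tested averaged 0.960 with the 3 LYF libraries and 0.926 with the other 5 LWF/SYF libraries. Those 5 correlated with each other at 0.933 to 0.976 and with the LYF libraries at 0.873 to 0.918, and the LYF libraries correlated with each other at 0.922 to 0.958. These correlations are across genes, which are not independent replicates, and describe the libraries. LYF-1 held 49.5% of its summed FPKM in 16 mitochondrially encoded genes, against 23.8% in LYF-2 and 23.1% in LYF-3. In the LWF/SYF libraries this share was 25.1% at the lowest, 29.999% at the median and 40.4% at the highest, in SYF-2. SYF-3 stayed in its group because the labels put it there, and results are given with and without it and LYF-1.

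**Figure D1:**
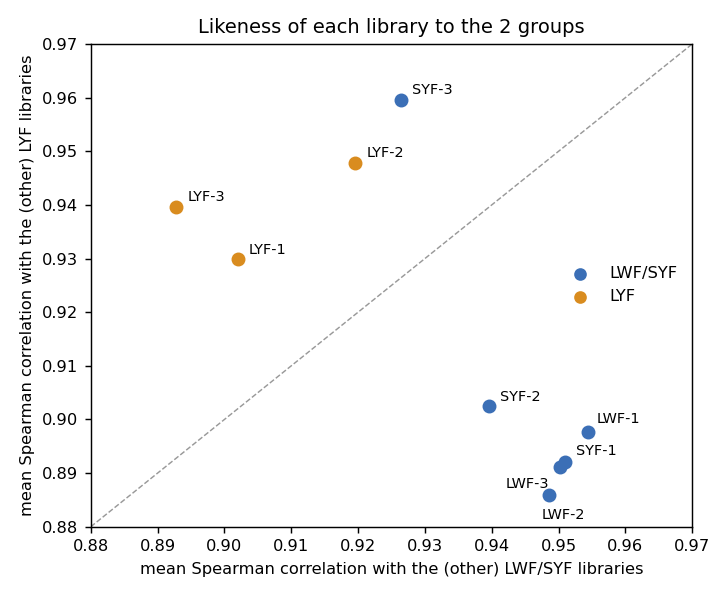
Mean Spearman correlation of each library with the other LWF/SYF libraries (x axis) and with the other LYF libraries (y axis), over 13469 genes; each point is 1 library and the dashed line marks equal values. SYF-3 (0.926 and 0.960) lies on the side of the LYF libraries.

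On the FPKM as deposited, without further scaling, more genes were called lower than higher in LYF. With limma on log2(FPKM + 1), 251 genes were higher in LYF (1.86% of the genes tested) and 1551 were lower (11.5%), 1802 in all (13.4%). A call needed a fold of FPKM + 1 over 1.5 and, after Benjamini-Hochberg adjustment, a p under 0.05. Among the genes higher in LYF, 188 passed 2-fold and 63 passed 4-fold, and the median log2 fold change was 1.37. Of the genes lower in LYF, 912 passed 2-fold and 130 passed 4-fold, with a median of −1.08. The median over all genes tested was −0.31. The genes higher in LYF lay at higher levels, taking the mean over the libraries. Of them 51 of 251 had a mean of 100 FPKM or more, against 50 of the 1551 lower genes and 542 of the 13469 tested.

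The excess of lower genes depended on how the libraries were scaled. The upper quartile of FPKM was 10.5 in LYF-1, 14.88 in LYF-2 and 13.3 in LYF-3. It ran from 14.9985 to 17.2 in the LWF/SYF libraries, with a median of 16.4, and LYF lay below, if narrowly for LYF-2 (exact two-sided permutation p = 0.0238, the smallest that 3 libraries against 6 allow). Dividing the FPKM by these upper quartiles shifted the log2 fold changes by 0.32 at the median of the 11459 genes whose mean exceeded 1 FPKM. On the scaled values limma called 1200 genes (8.91%), of which 661 were higher (4.91%) and 539 lower (4%) in LYF. The genes called with that scaling include 249 of the 251 higher genes and 539 of the 1551 lower genes called without it. Quantile normalization gave 388 higher and 376 lower. Scaling to the sum over genes outside the mitochondrial chromosome, which does not centre the bulk of the genes, gave 311 higher and 2215 lower. FPKM are relative within a library, so a general decrease and a larger share taken by a few abundant genes cannot be told apart here.

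The number of calls also depended on single libraries. Without SYF-3, limma called 609 genes higher (4.52%) and 2319 lower (17.2%) in LYF, 2928 in all (21.7%). It called 4 genes without LYF-1 and 13 without LYF-3, and it called 477 without LWF-1, 360 without LWF-2, 386 without LWF-3 and 534 without SYF-1. Only the fits without SYF-2 (1365) and without LYF-2 (1507) stayed within 1.5 times the count from all 9 libraries. At an unadjusted p under 0.05, 3983 genes passed without LYF-1 and 3596 without LYF-3, against 4555 with all 9 (33.8% of the genes tested). All 1802 genes called with 9 libraries had an unadjusted p under 0.05 without LYF-1 and also without LYF-3. These genes were chosen by a stricter cutoff in the same libraries, so that count is no separate support for the calls. Leaving out LYF-1 together with upper-quartile scaling left 2 calls and 3909 genes at an unadjusted p under 0.05. When SYF-3 and LYF-1 were both left out, a setting chosen after seeing the data, 918 genes were higher and 1762 lower.

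**Figure D2:**
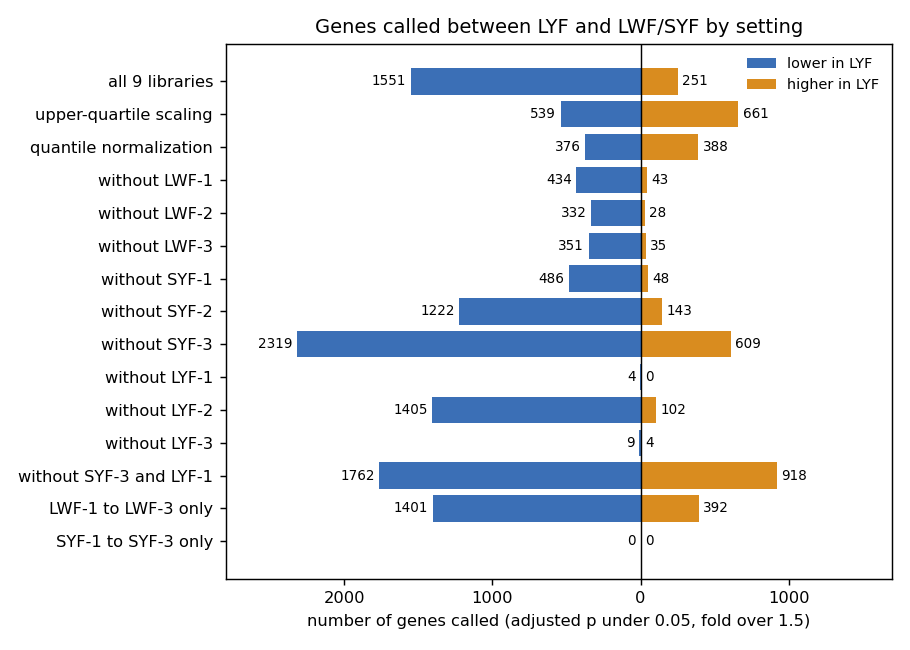
Number of genes called lower (blue, to the left) and higher (orange, to the right) in LYF by limma for 15 settings: all 9 libraries, other scalings, and libraries left out. With all 9 libraries 1551 genes were lower and 251 higher, upper-quartile scaling gave 539 and 661, and few genes were called without LYF-1 or LYF-3.

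The count of calls also differed between the exchanged sets of columns. The columns LWF-1 to LWF-3 alone against LYF gave 392 higher and 1401 lower genes. With the columns SYF-1 to SYF-3 alone, which include SYF-3, limma called 0 genes, and 1756 had an unadjusted p under 0.05. No fit used SYF-1 and SYF-2 alone, so the column name and the library SYF-3 cannot be told apart in this count. SYF-3 was then placed on the genes called without it. It lay nearer the LYF mean than the mean of the other LWF/SYF libraries for 575 of the 609 higher genes (94.4%) and for 1313 of the 2319 lower genes (56.6%). On a scale where 0 is the mean of the other LWF/SYF libraries and 1 the LYF mean, its median position was 0.95 on the higher genes and 0.54 on the lower genes. The same position was taken for each library left out in turn, over the genes with an unadjusted p under 0.05 and a fold over 1.5 in the fit without it. Its median was 0.60 for SYF-3, 0.82 for LYF-1, 0.56 for LYF-2 and 0.84 for LYF-3, and between −0.17 and 0.19 for the other LWF/SYF libraries. The value of SYF-3 lay between those of LYF-2 and LYF-1, but these positions are not on equal scales. For a LYF library, the mean at 0 includes SYF-3 and the mean at 1 leaves that LYF library out. On the lower genes called without it, SYF-3 lay near the middle, at 0.54.

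Fewer genes were detected in LYF. The number of genes over 0.5 FPKM was 11144 in LYF-1, 11894 in LYF-2 and 11562 in LYF-3. Among the LWF/SYF libraries it was 12041 at the lowest, in SYF-3, and 13491 at the highest, in LWF-2, with a median of 12376.5. The groups did not overlap, and the difference of the means was −986 genes (exact two-sided permutation p = 0.0238). After upper-quartile scaling the difference was −639 genes, and with a cutoff of 1 FPKM it was −812, each with the same exact permutation p of 0.0238. Leaving out single libraries kept the difference between −1166.5 and −791.5 genes. The filter on low values was passed by 11369 genes in both groups, by 1979 in LWF/SYF only and by 121 in LYF only. It asks for 2 of 6 libraries in LWF/SYF but 2 of 3 in LYF, so these counts do not compare the groups on equal terms. The genes tested were chosen by the same filter, so the counts of genes lower in LYF can include genes admitted through LWF/SYF only. With all 9 libraries, 0 genes had at least 5 FPKM in every library of either group and under 0.5 in every library of the other. Without SYF-3, a count added after seeing the data, 1 gene met this rule, ENSGALG00000015205. It had 10.49 FPKM in LYF-1, 7.31 in LYF-2 and 31.2 in LYF-3, 9.32 in SYF-3 and at most 0.17 in the other LWF/SYF libraries.

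By mean, the 100 most abundant genes took a larger part of the summed FPKM in LYF. The groups were free of overlap only when the mitochondrially encoded genes were left out. Without those genes, the part was 32.8% ± 3.27 (SD, n = 3) in LYF and 23.4% ± 1.497 (SD, n = 6) in LWF/SYF (exact two-sided permutation p = 0.0238). That measure was not in the plan and was not repeated with single libraries left out. The planned measure included the mitochondrial genes. It was 66.5% in LYF-1, 44.8% in LYF-2 and 47.5% in LYF-3, and overlapped with LWF/SYF. In LWF/SYF it ran from 42.6% to 54.2% with a median of 44.9%. That difference of 6.91 percentage points (exact two-sided permutation p = 0.238) came to 0.104 without LYF-1. By mean level, 75 of the 100 most abundant genes were common to both groups.

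ZP3, a zona pellucida glycoprotein that avian granulosa cells supply to the egg coat, had the largest log2 fold change among the abundant nuclear genes with a symbol, but narrowly missed the adjusted threshold. On chromosome 10 (ENSGALG00000001559), it measured 7537 FPKM in LYF-1, 10847 in LYF-2 and 12636 in LYF-3. LWF/SYF libraries had 2301 FPKM at the lowest, 3398 at the median and 7175 at the highest, in SYF-3. Every LYF library was above every LWF/SYF library, though LYF-1 was only slightly above SYF-3. The means were 10340 ± 2587 FPKM (SD, n = 3) in LYF and 4074 ± 1742 (SD, n = 6) in LWF/SYF, and the log2 fold change was 1.41 (SE 0.44, limma adjusted p = 0.0551). It was 1.59 with an adjusted p of 0.0154 by limma when SYF-3 was left out, and the gene was then called. With all 9 libraries it was called by limma without the trend (adjusted p = 0.0279) and with FPKM over 1 in at least 3 libraries as the filter (0.0379). In all, 7 of 25 alternatives called ZP3. It was not called with quantile normalization (limma adjusted p = 0.153), all 30 libraries in the fit (0.156) or no filter on low values (0.297). Leaving out any single library other than SYF-3 gave a limma adjusted p between 0.0632 and 0.138. ZP3 was the 15th gene by mean level in LWF/SYF and the 6th in LYF. Its mean was 1101 ± 354 FPKM (SD, n = 3) in SWF, the smallest follicles, and 12769 ± 3114 (SD, n = 3) in F5, so LYF lay close to F5.

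TXN, which encodes thioredoxin, a small protein that keeps protein thiols reduced, was the single gene with a symbol that passed the test. Of the 32 genes with a symbol, 1 was called higher and 0 lower by limma (2 at an unadjusted p under 0.05, TXN and ZP3), next to 1.86% and 11.5% of all genes tested. TXN, on chromosome Z (ENSGALG00000015704), had 1285 FPKM in LYF-1, 1421 in LYF-2 and 1167 in LYF-3. In LWF/SYF it ran from 409 to 992 FPKM, with a median of 614 and its highest value in SYF-3. The groups did not overlap, and the log2 fold change was 1.002 (SE 0.28, limma adjusted p = 0.0406), from a mean of 667 ± 203 FPKM (SD, n = 6) to 1291 ± 127 (SD, n = 3). The call held without SYF-3 (limma adjusted p = 0.0103). It was lost when any other single library was left out, where the limma adjusted p was 0.0585 without SYF-2, 0.0667 without LWF-2, 0.0781 without LWF-1, 0.0791 without LWF-3, 0.0795 without SYF-1, 0.0823 without LYF-1, 0.0856 without LYF-3 and 0.0888 without LYF-2, and with quantile normalization (0.241).

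SPARC, a secreted matrix glycoprotein that modulates contacts between cells and collagen, was the most abundant nuclear gene with a symbol in LWF/SYF. Its levels were 10362 FPKM in LYF-1, 9640 in LYF-2 and 8374 in LYF-3. Among the LWF/SYF libraries they were 5274 at the lowest, 6718 at the median and 8317 at the highest, again in SYF-3. The groups did not overlap, with LYF-3 just above SYF-3. The log2 fold change of 0.53 (SE 0.41) did not pass limma's test (adjusted p = 0.366). With the trend, that test draws the variance of a gene toward that of genes at similar levels. Among the alternatives, the limma adjusted p of SPARC was lowest without the trend (0.0966) and highest with quantile normalization (0.911). Of the 19 nuclear genes with a symbol, TXN, ZP3 and SPARC were the 3 whose LYF libraries all lay above LWF/SYF, and 0 had all LYF libraries below. Over all genes tested 1.4% lay above and 16.3% below without overlap (17.7% in all).

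**Figure D3:**
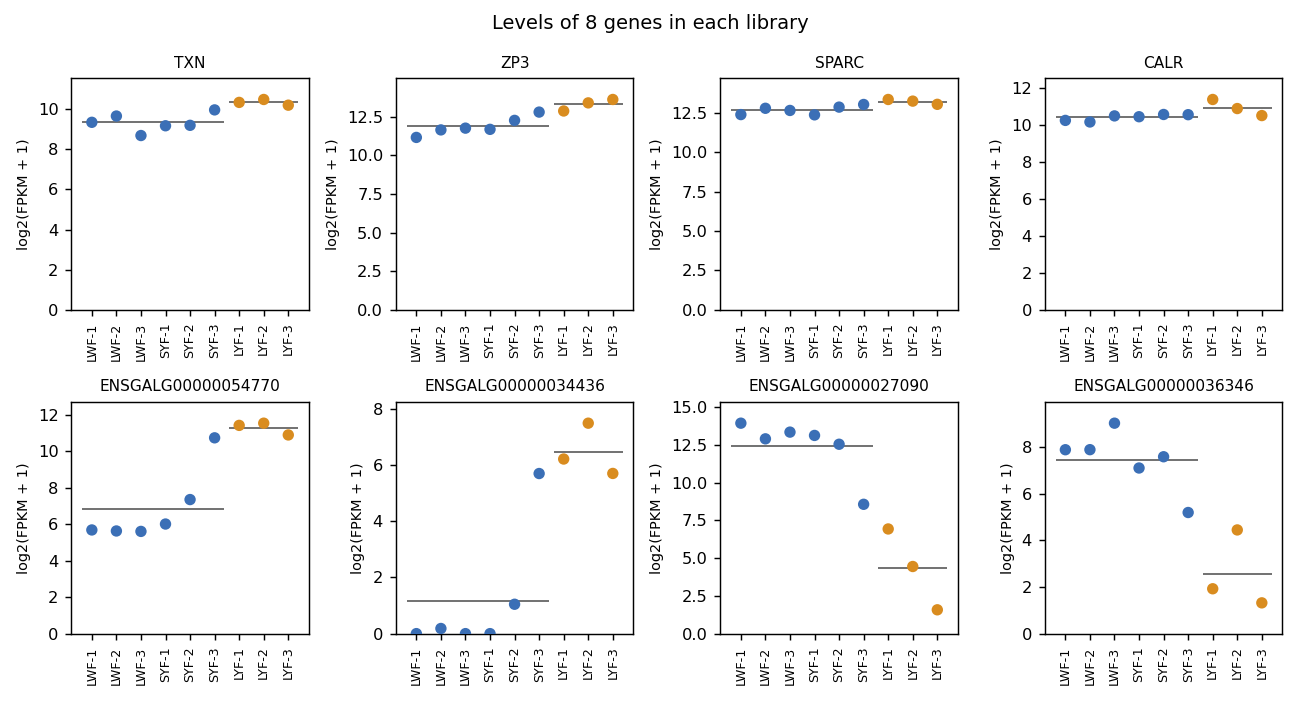
Level on the log2(FPKM + 1) scale (y axis) of 8 genes in each of the 9 libraries (x axis), LWF/SYF in blue and LYF in orange; the horizontal lines are group means. SYF-3 is the LWF/SYF library nearest to LYF for TXN, ZP3, SPARC and the 4 identifiers of the lower row.

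The genes named here for protein folding, lysosomal proteolysis and iron storage did not pass the main test. CALR, which encodes the endoplasmic reticulum chaperone calreticulin, had 2653 FPKM in LYF-1, 1889 in LYF-2 and 1451 in LYF-3. It ran from 1141 to 1512 FPKM in LWF/SYF with a median of 1412, so LYF-3 lay within that range. Its log2 fold change was 0.51 (SE 0.27, limma adjusted p = 0.195). It was 0.87 with upper-quartile scaling (limma adjusted p = 0.108) and turned to −0.073 with quantile normalization. PPIB, a prolyl isomerase of the same compartment, had a log2 fold change of −0.04, and the cytosolic chaperone HSP90AA1 one of −0.05. With upper-quartile scaling they were 0.31 for PPIB and 0.30 for HSP90AA1. CTSB, the lysosomal protease cathepsin B, had a log2 fold change of 0.34, or 0.69 with upper-quartile scaling (limma adjusted p = 0.163). FTH1, the ferritin heavy chain that stores iron, was at 0.34, or 0.69 with upper-quartile scaling (limma adjusted p = 0.0682). Over all alternatives the limma adjusted p of FTH1 ran from 0.0307 to 0.765, and with single libraries left out it was at least 0.189. APLP2, a relative of the amyloid precursor protein, was at −0.27, or 0.09 with upper-quartile scaling.

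GAPDH and ACTB are often used as internal references, and neither passed limma's test between the groups. GAPDH, a glycolytic enzyme, measured 356 FPKM in LYF-1, 840 in LYF-2 and 738 in LYF-3. The LWF/SYF libraries had between 591 and 1172 FPKM, with a median of 940.04. LYF-1 was below all of them, and the other LYF libraries lay inside their range. The log2 fold change was −0.57 (SE 0.32, limma adjusted p = 0.231), −0.22 with upper-quartile scaling and 0.024 when LYF-1 was also left out. ACTB, cytoplasmic actin, had 934 FPKM in LYF-1, 1519 in LYF-2 and 1227 in LYF-3, against 1083 to 1595 in LWF/SYF. Its log2 fold change was −0.14 (SE 0.25, limma adjusted p = 0.711), which became 0.21 with upper-quartile scaling.

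The translation genes were spread more widely among the LYF libraries than between the groups. They comprise 5 genes of ribosomal proteins (RPLP1, RPS10, RPL23, RPS3A and RPL6), the elongation factor EEF1A, which brings aminoacyl-tRNA to the ribosome, and EIF4A2, an RNA helicase of initiation. The summed FPKM of the 5 ribosomal protein genes was 1512 in LYF-1, 2645 in LYF-2 and 6934 in LYF-3. In LWF/SYF it ran from 1514 to 3384, the highest in SYF-3. LYF-3 was thus above every LWF/SYF library, while LYF-1 was about level with the lowest, SYF-2. By gene, RPS3A, RPL23 and RPL6 in LYF-1 were below every LWF/SYF library, and RPLP1 (508 FPKM) and RPS10 (320) were inside the LWF/SYF range. All 7 genes were highest of the 9 libraries in LYF-3 and lowest of the LYF libraries in LYF-1. Of the 19 nuclear genes with a symbol, which include these 7, 9 were highest in LYF-3. Of the same 19, 12 were lowest of the LYF libraries in LYF-1, the library with the lowest upper quartile. The shares over all genes tested were not counted. With all 9 libraries, the log2 fold changes of the 7 translation genes ran from 0.04 for RPL6 to 0.64 for RPLP1 (limma adjusted p = 0.187). Of the 7, 0 passed limma's test (13.4% of all genes tested did) or had an unadjusted p under 0.05 (33.8% did). Without LYF-3 the log2 fold change was below 0 for 5 of them, reaching −0.74 for RPL6, and it was 0.24 for RPLP1 and 0.21 for EIF4A2. Without LYF-1 the median of the 7 was 0.93, and 0 were below 0. Some were called when SYF-3 and LYF-1 were both left out, a setting chosen after seeing the data. There RPLP1 was at 1.08 (limma adjusted p = 0.0272), RPS10 at 1.29 (0.0419) and RPL23 at 1.24 (0.0322). With upper-quartile scaling and SYF-3 left out, also chosen after seeing the data, RPLP1 was called (limma adjusted p = 0.0182). RPS10 (0.0727) and RPL23 (0.0926) were not called there. The limma adjusted p of EIF4A2 ran from 0.0193 to 0.905 over the alternatives. The named genes are 5 of the 64 ribosomal protein genes in the list used, so no statement on ribosomal proteins as a group was made.

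The mitochondrially encoded subunits of the respiratory chain were high in LYF-1 and not in the other LYF libraries. These 13 genes encode parts of complex I (ND1 to ND6 and ND4L), complex III (CYTB), complex IV (COX1 to COX3) and the ATP synthase (ATP6 and ATP8). COX1, the catalytic subunit of cytochrome c oxidase, had 55953 FPKM in LYF-1, 25526 in LYF-2 and 24346 in LYF-3. In LWF/SYF it ran from 26545 to 44174 FPKM with a median of 29334.5. LYF-1 was above and the other 2 LYF libraries below every LWF/SYF library, as they were for 3 of the 13 genes. LYF-1 was the highest of all 9 libraries for 12 of them. The exception was COX3, another cytochrome c oxidase subunit, with 38534 FPKM in SYF-2 and 37233 in LYF-1.

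As a list, 0 of these 13 genes were called by limma, next to 13.4% of all genes tested, and 0 had an unadjusted p under 0.05, next to 33.8%. The median log2 fold change was 0.17 with all libraries, 0.52 with upper-quartile scaling and −0.35 without LYF-1, where 12 of the 13 were below 0. The direction of the list therefore followed LYF-1. Together they held 46.4% of the summed FPKM in LYF-1, 22.3% in LYF-2 and 21.6% in LYF-3, and 23.6% (SYF-3) to 37.4% (SYF-2) in LWF/SYF. The part that this share had in the lower upper quartile of LYF-1 was not tested.

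**Figure D4:**
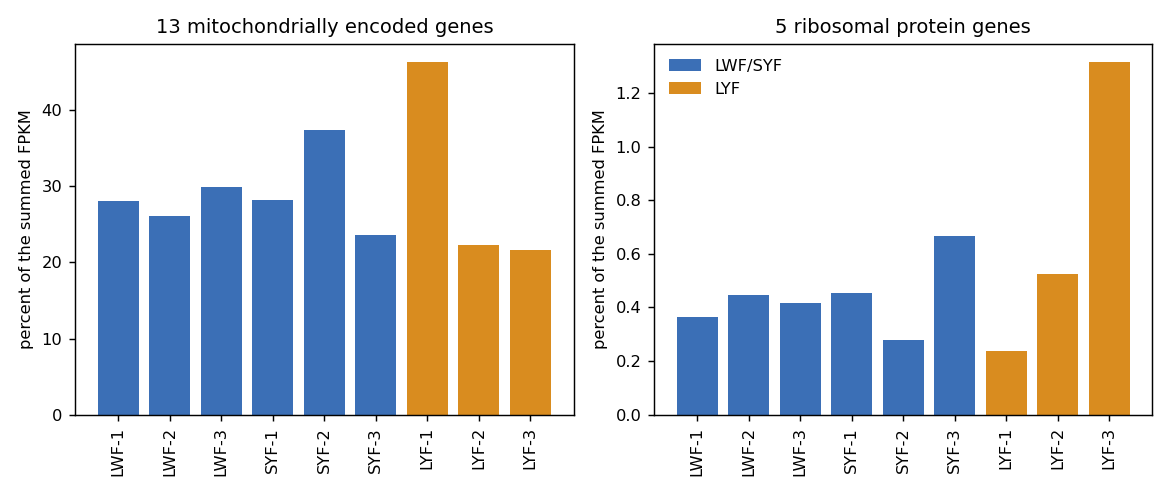
Percent of the summed FPKM of each library (y axes) held by 13 mitochondrially encoded genes (left) and by 5 ribosomal protein genes (right), LWF/SYF in blue and LYF in orange. The mitochondrial share is highest in LYF-1 (46.4%) and the ribosomal protein share in LYF-3, where the summed level is 6934 FPKM.

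The largest differences fell on genes for which no symbol was at hand, and 4 identifiers show their size. They are the 2 in each direction with the largest fold among called genes whose groups did not overlap and whose mean in the higher group was at least 5 FPKM. ENSGALG00000027090 was the 6th most abundant gene in LWF/SYF and the 1322nd in LYF. It had 121 FPKM in LYF-1, 20.7 in LYF-2 and 1.98 in LYF-3. In LWF/SYF it had 15565 FPKM at the highest, 8230 at the median and 376 at the lowest, in SYF-3, while the other 5 libraries were at 5920 or more. SYF-3 thus lay between the groups. The log2 fold change was −8.08 (SE 1.21, limma adjusted p = 0.016). The gene averaged 10703 ± 1124 FPKM (SD, n = 3) in SWF and 9.01 ± 6.003 (SD, n = 3) in F5, so LYF lay on the side of F5.

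ENSGALG00000036346 had the same shape at a lower level, with 2.80 FPKM in LYF-1, 20.9 in LYF-2 and 1.497 in LYF-3. Its LWF/SYF libraries ran from 35.7 FPKM, in SYF-3, to 522, with a median of 214, and the log2 fold change was −4.89 (SE 0.78, limma adjusted p = 0.016). ENSGALG00000054770 went the other way, with 2753 FPKM in LYF-1, 2994 in LYF-2 and 1913 in LYF-3. In LWF/SYF its lowest level was 47.8, its median 57.1 and its highest 1715 FPKM, in SYF-3. The other 5 LWF/SYF libraries did not exceed 163 FPKM, so SYF-3 was at about the LYF level. The log2 fold change was 4.45 (SE 0.96, limma adjusted p = 0.0224), and 5.23 (limma adjusted p = 7.4e-05) without SYF-3. From the 95th place in LWF/SYF it moved to the 20th in LYF.

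ENSGALG00000034436 was near 0 in most LWF/SYF libraries. It was listed at 0 FPKM in 3 of them, with a median of 0.068, at 1.07 in SYF-2 and at 51.2 in SYF-3. The LYF libraries had 73.6, 179.9 and 51.3 FPKM, and LYF-3 was above SYF-3 by a small margin. The log2 fold change of 5.32 (SE 1.105, limma adjusted p = 0.0208) depends on the pseudocount of 1 at such low levels. Its mean was 51.4 ± 36.3 FPKM (SD, n = 3) in F5, 4.56 ± 0.746 (SD, n = 3) in F3 and 2.102 ± 1.499 (SD, n = 3) in F1, so the LYF mean of 102 FPKM was the highest of any stage group. The calls of all 4 identifiers were lost without LYF-1 or without LYF-3, with limma adjusted p of 0.0521 and 0.0523 for ENSGALG00000027090, 0.0521 and 0.0563 for ENSGALG00000036346, 0.0635 and 0.0652 for ENSGALG00000054770 and 0.0575 and 0.0612 for ENSGALG00000034436. That of ENSGALG00000054770 was also lost without LWF-2 or LWF-3, with a limma adjusted p of 0.0502 for each.

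Libraries that took no part in the calls were then used to read the same genes. SWF and F5 are the stages on either side, and limma on their 6 libraries called 1111 of the 13469 genes higher in F5 (8.25%) and 3670 lower (27.2%), 4781 in all (35.5%). Of the 251 genes higher in LYF, 203 were higher in F5 (80.9%) and 0 were lower. Of the 1551 genes lower in LYF, 1010 were lower in F5 (65.1%) and 0 were higher. The genes tested include 1979 that passed the filter in LWF/SYF only and 121 that passed in LYF only. How many of these are among the called genes was not counted, and they were not set aside here. The median log2 fold change of F5 relative to SWF was 1.76 for the first set, −1.14 for the second and −0.32 over all genes tested. With upper-quartile scaling of SWF and F5 only, 14.8% of the genes tested were higher and 16.7% lower in F5 (31.5% in all). Of the 251 genes, called without scaling, 218 (86.9%) were then higher and 0 lower. Of the 1551, 770 (49.6%) were lower and 5 higher. With the scaling in both comparisons, 484 of the 661 genes higher in LYF (73.2%) were higher in F5 and 0 lower. Of the 539 genes lower in LYF, 366 (67.9%) were lower in F5 and 0 higher. The count of 4781 genes called between SWF and F5 came to 2698 without SWF replicate 2.

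**Figure D5:**
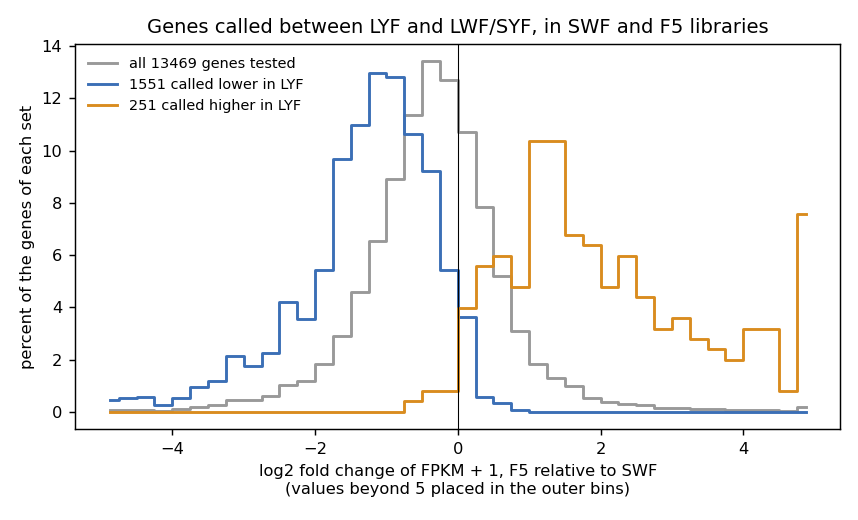
Distribution of the log2 fold change of FPKM + 1 in F5 relative to SWF (x axis) as percent of each gene set (y axis), for all 13469 genes tested, 1551 genes lower in LYF and 251 genes higher in LYF. The medians are −0.32, −1.14 and 1.76, in libraries that took no part in choosing the sets.

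Single genes with a symbol were also read in these libraries, of which only TXN had been called between LWF/SYF and LYF. TXN was higher in F5 than in SWF by a log2 fold change of 1.09 (limma adjusted p = 0.00439) and ZP3 by 3.55 (0.000654). SPARC, which did not pass between LWF/SYF and LYF, was higher in F5 by 1.29 (limma adjusted p = 0.0149). CTSB, RPLP1, RPS10 and RPL23, which did not pass there either, were also called higher in F5, and ACTB was called lower. FTH1, at 0.34 in LYF relative to LWF/SYF, was at −0.55 in F5 relative to SWF (limma adjusted p = 0.168). GAPDH was lower by −1.72 (limma adjusted p = 0.00166), from 2510 ± 390 FPKM (SD, n = 3) in SWF to 756 ± 87.6 (SD, n = 3) in F5. Its LWF/SYF mean was 925 ± 236 FPKM (SD, n = 6), so most of that difference lay between SWF and the medium-sized follicles.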

How the data were processed

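Granulosa layer RNA was depleted of rRNA and sequenced as strand-specific paired-end libraries. Before deposit, the authors filtered the reads, aligned them to GRCg6a (HISAT2 2.1.0) and computed the deposited FPKM per gene with StringTie 1.3.3. Neither read counts nor a scaling between libraries beyond FPKM was used here, except as an alternative. Groups came from the sample labels, with LWF and SYF pooled. Genes with FPKM over 0.5 in at least 2 libraries of a group were transformed as log2(FPKM + 1), which understates the fold change of low genes, and tested with limma 3.58.1 in R 4.3.3 (trend, two-sided, Benjamini-Hochberg over 13469 genes, fold over 1.5). Library quantities were compared by exact two-sided permutation over 84 splits (scipy 1.17.1, Python 3.11.15), and figures were drawn with matplotlib 3.10.9.

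Chromosomes and symbols came from a supplementary gene table of the study, which pairs 36 identifiers with names, 32 with symbols. The reference gene table matched 0 identifiers. Of 28 gene lists, 1 had at least 80% of its members paired with identifiers, the 13 mitochondrially encoded genes. The other lists, and a planned search of promoters, were void. The genes named are those 32, of which 1 is not reported here, the identifiers that the table leaves without a symbol where a value stood apart, and at most 2 identifiers per direction by the largest fold. These genes, lists and groups were chosen with earlier results of these data known. The alternatives were other scalings, pseudocounts, filters and designs, and each library left out.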

Additional observations from a re-analysis of the deposited data

Results flagged for a closer look

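Of 48 quantities examined in the 6 LWF/SYF libraries, 11 had 1 library far from the other 5 (a gap over 0.625 of the whole range). Chance alone flags about 1 in 20 such groups, and these quantities are not independent, since several come from the same library. SYF-2 was far above the others for 6 mitochondrially encoded genes: COX1 at 44174 FPKM, ND1 at 9668, ND5 at 6119, and the identifiers without a symbol ENSGALG00000033462 at 11262, ENSGALG00000036956 at 3054 and ENSGALG00000043598 at 2003. The share of the 100 most abundant genes also stood apart in SYF-2, at 54.2%. SYF-3 stood apart in its mean correlation with LYF (0.960) and in ENSGALG00000034436 (51.2 FPKM) and ENSGALG00000054770 (1715 FPKM). LWF-2 had the most genes over 0.5 FPKM, 13491.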

How the results depend on the processing

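Under 25 alternatives, the count of 1802 genes called between LYF and LWF/SYF became 1200 with upper-quartile scaling, 764 with quantile normalization, 732 with no filter on low values, 426 at an absolute log2 fold change over 1.5, 0 with the columns SYF-1 to SYF-3 alone and 2 with upper-quartile scaling and LYF-1 left out. Leaving out single libraries gave 4 to 2928, and the other 10 alternatives stayed within 1.5 times the count. Among these, upper-quartile scaling without SYF-3, chosen after seeing the data, gave 1264 higher and 1177 lower genes. The cause was not tested. Between SWF and F5, leaving out single libraries gave 2698 to 4682 calls. The difference in the share of the 100 most abundant genes ran from 0.104 to 10.99 percentage points when single libraries were left out. Of the 40 genes named or followed by identifier, 31 of the 35 not called and 0 of the 5 called turned direction under at least 1 alternative. Examples are CALR to −0.073 (quantile normalization), GAPDH to 0.024 (upper-quartile scaling without LYF-1), RPS10 over −0.00042 to 1.14 and RPL23 over −0.11 to 1.097 as single libraries were left out. All but TXN of the called genes were picked for the largest fold in these same libraries. Their kept direction is therefore no evidence on the stability of calls. The deviations of same-numbered libraries correlated at 0.0076 to 0.373, all 6 above 0 and 3 over 0.1. Of 12 pairs with other numbers, 8 were below 0 and 1 was over 0.1. Deviations were taken from the mean of the 3 libraries of a column name, so the 2 sets of correlations are tied to each other. Since not every same-numbered pair passed 0.1 and no label names a shared hen or day, the numbers were not read as pairs. A replicate block gave 2023 calls, with ZP3 among them (limma adjusted p = 0.0439), and 4662 between SWF and F5.

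The main limits are the 3 LYF libraries, a count of calls that falls by more than 1.5 times without LYF-1, LYF-3, LWF-1, LWF-2, LWF-3 or SYF-1, and the library SYF-3. Read counts were not used, and depth was compared in relative terms.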
